A study of Sus scrofa with 8 samples.

Results

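Short-span lncRNA loci on the assembled chromosomes were examined in the livers of 2 young sows (180 days) and 2 old sows (8 years), all healthy, unrelated females of the indigenous Chinese breed Yana. One liver sample per sow gave 1 rRNA-depleted RNA-seq library, so each age group had 2 biological replicates, and each group stands for a single age. The study states that the young sows had never given birth and that the old sows were culled breeding animals. Age and reproductive history therefore cannot be told apart in any comparison below. The loci were chosen by their span and their mean level over all 4 libraries. A locus was taken as short-span when the distance from its first to its last base was under 2000 bases, and it was kept when the mean of its 4 deposited values was under 10. Of the 4028 lncRNAs in the deposited table, 956 met the rule. The table placed 3697 lncRNAs on chromosomes, of which 987 spanned under 2000 bases and 31 of these were left out for a mean of 10 or more. A further 295 lncRNAs were on unplaced scaffolds and 36 had no position. The low mean of these loci was therefore set by the selection and is not a result. The selection did not use the contrast between ages.

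Long non-coding RNAs are transcripts of more than a minimum length that do not code for protein. Some act on chromatin or transcription near the site where they are made, others act elsewhere in the cell, and for many no role is known. Loci assembled from reads alone, as here with StringTie, can include single-exon transcripts as well as pieces of longer transcripts that were only partly covered. The loci described below carry assembly names (MSTRG) and no known function, and the deposited positions give no strand. Positions are on the pig assembly Sscrofa10.2, and gene annotation of that assembly was not used here.

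The values are CPM (reads scaled to a fixed library total, which is not stated), and each value is a whole number of reads times a fixed step. One read was worth 0.0109 and 0.0116 CPM in young replicates 1 and 2 and 0.0162 and 0.0139 CPM in old replicates 1 and 2, so a given CPM rested on more reads in the young libraries. The listed mRNAs and lncRNAs held between 28324675 and 52207649 reads per library, with the young libraries the deeper ones. The short-span loci held 97053 and 81978 reads in young against 62044 and 53907 in old livers, which was 0.544% to 1.06% of the lncRNA reads. The most abundant lncRNA alone held 66.6% to 89.5% of the lncRNA reads. Without it the short-span share was 4.41% and 5.18% in young against 3.18% and 4.54% in old livers. Of 10 hepatocyte markers, 8 could be found among the mRNAs and summed to 86984 and 96149 CPM in young against 61212 and 65225 CPM in old livers, and the 4 of 6 Kupffer cell and macrophage markers found summed to 204 and 226 against 290 and 284 CPM. Both sums thus differed by age without overlap, but not every gene did. ALB and APOC3 were lower in both old livers, and TAT, FGB, TF, AHSG, TTR and APOA1 overlapped between ages. C1QA, MARCO and CD68 were higher in both old livers, and CSF1R overlapped. Endothelial (21.1 and 18.8 against 26.1 and 24.0 CPM) and T and NK cell sums (4.95 and 6.41 against 14.8 and 7.62) were also higher in both old livers. Erythroid (621 and 429 against 306 and 405) and B and plasma cell sums (1.21 and 1.93 against 0.959 and 0.321) were lower. Cholangiocyte, stellate cell and fibroblast, and skeletal muscle sums overlapped between ages. The part of these markers in the results below was not tested. The 2 skeletal muscle markers found summed to at most 1.03 CPM. The 8 interferon-stimulated genes found, of 12 on the list, summed to 1425 CPM in old replicate 1 and to between 17.3 and 28.6 CPM in the other 3 livers. Limits set from reads cover counting error alone.

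The 956 loci had a median span of 1093 bases (quartiles 722 and 1529, range 293 to 1998) and covered 1.07 Mb in all. They were found on every chromosome in the table, from 16 loci on chromosome 17 to 83 on chromosome 6, and made up between 18.6% (chromosome 17) and 32.5% (chromosome 5) of the lncRNA loci of each chromosome. The nearest other lncRNA locus was 94731 bases away in the median, against 114324 bases for the 2634 long-span loci, which are the chromosomal loci of 2000 bases or more with the same limit on the mean. Only 23 of the 956 loci (2.41%) overlapped the span of a circRNA listed in the same livers, against 89 long-span loci (3.38%). Within the short-span set, longer loci did not have higher values, with a Spearman coefficient of -0.04 between span and mean CPM across the 956 loci, which share the same 4 libraries.

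Fewer of these loci were listed above 0 in young livers than in old livers, in deposited tables where low counts were rare in the young libraries. Whether a young 0 stands for no reads or for a low count that was not listed was not tested and cannot be read from the values. In young replicates 1 and 2, 473 and 353 loci (49.5% and 36.9%) were above 0, and for old replicates 1 and 2 the numbers were 823 and 737 (86.1% and 77.1%). Both old livers were thus above both young livers, by 367 loci on average (413 ± 84.9 in young and 780 ± 60.8 in old, SD, n = 2 each). The exact two-sided permutation test over the 4 libraries gave p = 0.333, the smallest that 2 against 2 allows. In whole liver, fewer cells that make an RNA and less RNA per cell cannot be told apart. Thinning every library to the smallest read total, computed without random draws, left 472.6 and 351.8 loci in young against 823 and 735.8 in old livers. The young libraries were the deeper ones, so thinning took reads mostly from them and could not have removed the excess of old livers.

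Above 0 in at least 1 liver of an age, 535 loci were found in both ages (56.0%, against 64.4% of all lncRNAs), 387 only in old livers and 34 only in young livers. Loci above 0 only in old livers made up 40.5% of the short-span set, against 32.7% of all 4028 lncRNAs, and loci above 0 only in young livers made up 3.56% against 2.83%. Of the 387, 184 were above 0 in both old livers, and of the 34, 1 was above 0 in both young livers. The loci above 0 only in old livers were low, with a median mean of 0.0638 CPM and with 39 of 387 (10.1%) reaching 1 CPM in either old liver. Of the 34 only in young livers, 14 (41.2%) reached 1 CPM. In 47 of the 387 loci the most reads in any library were 3 or fewer, so these rested on counts at the limit of detection.

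The excess of old livers depended on the lowest value that was counted. At 0.1 CPM or more there were 449 and 332 loci in young against 675 and 600 in old livers. At 0.5 CPM the numbers were 347 and 276 against 396 and 311, and the age groups overlapped. At 1 CPM they were 251 and 221 against 252 and 182, with means of 236 ± 21.2 in young and 217 ± 49.5 in old livers (SD, n = 2, exact permutation p = 1). At 5 CPM both young livers had 60 loci and the old livers 48 and 28. Correspondingly, loci reached only in old livers outnumbered those reached only in young livers at 0.1 CPM (290 against 59), were equal to within 1 locus at 0.5 CPM (131 against 132), and were fewer at 1 CPM (81 against 140). The ages also overlapped at 1 CPM for all lncRNAs (1301 and 1197 in young against 1263 and 1062 in old livers). The same held for long-span loci (842 and 764 against 789 and 671), so the overlap was not particular to the short-span set. The split into only old and only young at these CPM values was not computed for other sets.

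**Figure D1:**
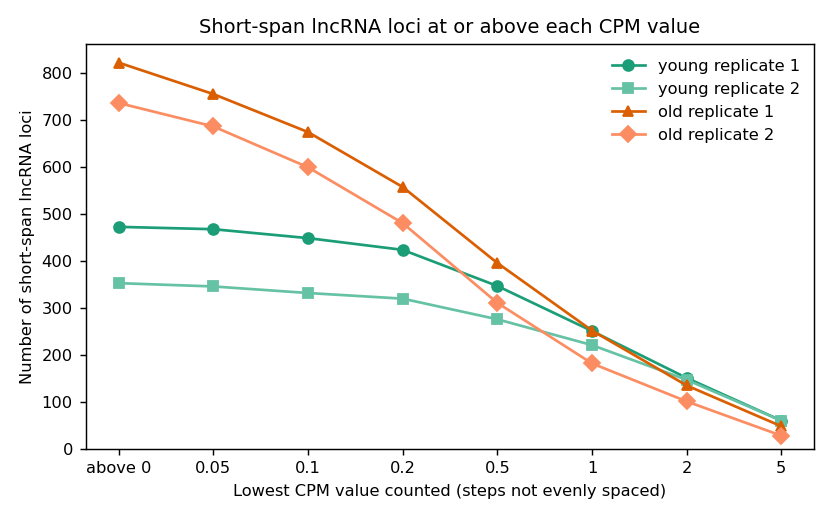
Number of short-span lncRNA loci (vertical axis) at or above each CPM value (horizontal axis, steps not evenly spaced) in each of the 4 libraries. The old livers lie above the young livers when any value above 0 is counted (823 and 737 against 473 and 353), and the lines meet near 0.5 to 1 CPM.

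The age groups also differed in the reads behind each locus. Among loci above 0, the median was 99 and 130 reads in young against 28 and 27 in old livers. Loci with 10 reads or fewer numbered 25 and 22 in young against 225 and 195 in old livers, which was 5.29% and 6.23% against 27.3% and 26.5% of the loci above 0 (exact permutation p = 0.333, n = 2 each). Low counts were rare in the young libraries in other sets too, with 7.65% and 9.99% against 27.0% and 23.8% of long-span loci, 6.49% and 8.68% against 26.2% and 23.3% of all lncRNAs, and 9.71% and 8.35% against 19.98% and 16.4% of mRNAs, although the young libraries were the deeper ones. With 1 to 3 reads there were 2 and 6 loci in young against 67 and 50 in old livers. More than 30 reads were found on 390 and 292 loci in the young livers and on 396 and 335 in the old livers, numbers that overlapped between ages. Folds given below against a young 0 take 3 reads per young library as the limit, which holds only if counts above that would have been listed.

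**Figure D2:**
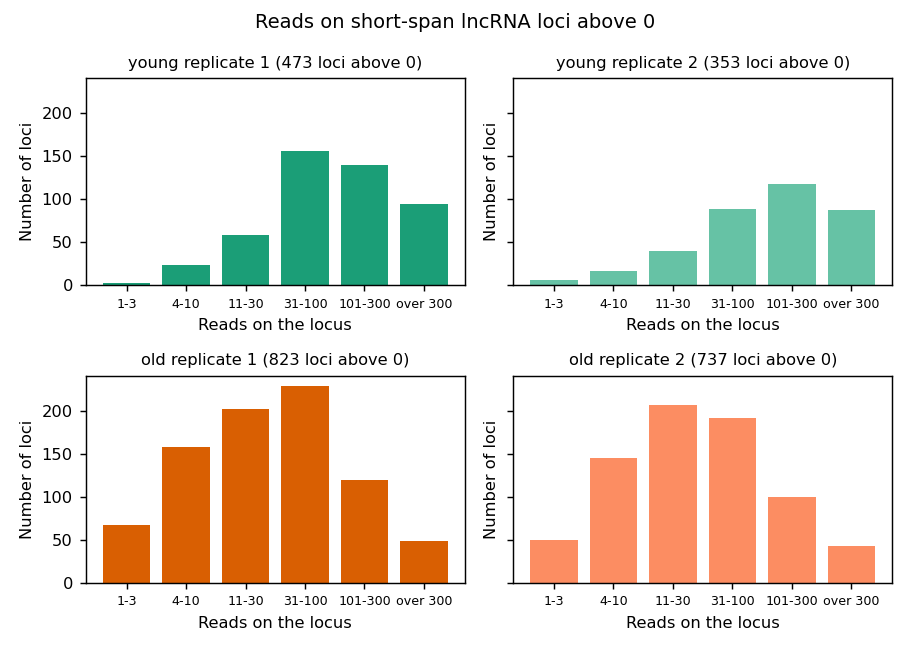
Number of short-span lncRNA loci (vertical axis) by the number of reads on the locus (horizontal axis, unequal classes), for loci above 0 in each library. Classes of 10 reads or fewer hold 25 and 22 loci in young against 225 and 195 in old livers.

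Some loci at 0 in a young liver were well covered in each of the other 3 livers. Of the loci with at least 20 reads in each of the other 3 livers, 79 of 265 (29.8%) were at 0 in young replicate 2 and 20 of 205 (9.76%) in young replicate 1, against 3 of 185 (1.62%) in old replicate 1 and 1 of 200 (0.5%) in old replicate 2. In the 79 loci missing from young replicate 2 the lowest of the other 3 counts had a median of 47 reads. Among long-span loci the corresponding shares at 0 were 5.44% and 12.8% in young against 0.118% and 0.948% in old livers. The short-span share exceeded the long-span share by 10.7 ± 8.98 percentage points in young and by 0.528 ± 1.38 in old livers (SD, n = 2 each, exact permutation p = 0.333, the smallest possible). Among all mRNAs above 0 in at least 1 library, which carry no limit on the mean, 1.18% and 3.21% were at 0 in the young livers by the same count.

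The young livers also differed from each other at these loci, as they did at other lncRNAs. Of the 569 loci above 0 in either young liver, 257 were above 0 in both and 312 (54.8%) in 1 of them, and the latter carried a median of 83.5 reads in the liver where they were found. In the old livers 638 loci were above 0 in both and 284 (30.8%) in 1, with a median of 11 reads. The corresponding shares found in 1 of both livers were 34.0% in young and 21.9% in old livers for long-span loci, and 37.5% and 23.4% for all lncRNAs. Across the 956 loci, Pearson's r of log2(CPM + 1) was 0.53 between the young livers and 0.75 between the old livers (0.64 and 0.77 across long-span loci), and young replicate 1 had 0.61 and 0.64 with old replicates 1 and 2. These coefficients are descriptions across loci that share libraries. The most common combination was a value above 0 in all 4 livers (250 loci), followed by both old livers alone (184), all livers but young replicate 2 (151), old replicate 1 alone (138) and old replicate 2 alone (65). On the X chromosome, 4 of 25 loci were above 0 in young replicate 1 and 11 in young replicate 2, and chromosome 17 (5 and 8 of 16) was the other chromosome on which young replicate 2 had more.

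Short-span loci were above 0 less often than long-span loci in each of the 4 livers. The difference was 12.0 and 15.9 percentage points in the young livers, where 61.5% and 52.8% of long-span loci were above 0, and 2.07 and 7.80 points in the old livers, where 88.2% and 84.9% were. The gap between the sets was 9.04 points wider in young livers (-14.0 ± 2.76 in young and -4.93 ± 4.05 in old livers, SD, n = 2 each), and the exact permutation test gave p = 0.333, the smallest possible. With a mean of at least 0.1 CPM required in both sets the widening was 8.92 points. In young replicate 1 the share above 0 was 43.4% for the 106 loci under 500 bases, 55.4% for the 260 loci of 1500 to under 2000 bases and 63.6% for the 786 loci of 2000 to under 5000 bases. Young replicate 2 went from 27.4% to 41.5% and 53.9% over the same classes, old replicate 1 from 81.1% to 88.1% and 89.1%, and old replicate 2 from 72.6% to 79.6% and 84.6%. Beyond 5000 bases the shares rose no further in the young livers. Loci above 0 had a median of 99 and 130 reads in the young livers when short and of 98 and 101.5 when long, and of 28 and 27 against 31 and 34 in the old livers.

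**Figure D3:**
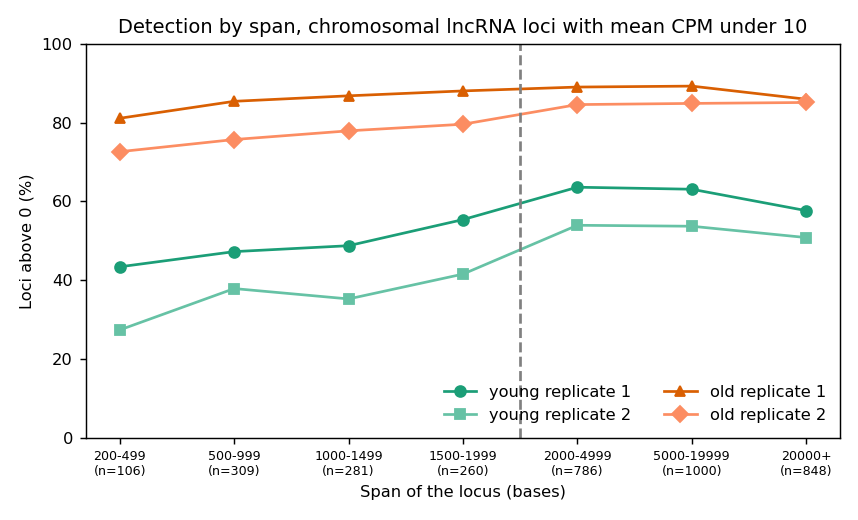
Share of chromosomal lncRNA loci with a mean under 10 CPM that were above 0 (vertical axis) by span of the locus (horizontal axis, unequal classes), for each library. Loci left of the dashed line are the short-span set, and the young libraries lie lower there, at 27.4% to 55.4%, than for the loci of 2000 to under 5000 bases (53.9% and 63.6%).

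Levels were compared with limma on log2(CPM + 1) over all 3228 lncRNAs above 0 in at least 2 libraries, a scale that understates changes at low values. Of the short-span loci, 720 were tested and 236, above 0 in a single library, were not. None passed an adjusted p-value of 0.05 with an absolute log2 fold change above 1, as was the case for all lncRNAs (0% called), and the smallest adjusted p-value was 0.181. At an unadjusted p-value under 0.05, 55 loci (7.64%) were higher in old livers against a background of 7.68% of all lncRNAs, and 32 (4.44%) were lower against 6.54%, shares near the background. Without young replicate 1 these counts were 71 higher (9.86%, background 8.02%) and 86 lower (11.9%, background 11.2%). Without young replicate 2 they were 37 (5.14%, background 5.3%) and 76 (10.6%, background 11.5%). Without old replicate 1 they were 137 (19.0%, background 15.5%) and 20 (2.78%, background 4.49%), and without old replicate 2 they were 147 (20.4%, background 16.9%) and 17 (2.36%, background 3.69%). Of the 720 loci, 184 passed the filter through the old livers alone and 1 through the young livers alone, so the counts and the median over tested loci are descriptions. Over the 720 loci the median log2 fold change was 0.06 (quartiles -0.33 and 0.36), against 0.00 over all lncRNAs and -0.02 over long-span loci.

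With each group held at no less than the limit of 3 reads per library, the log2 ratio of old to young mean CPM had a median of 0.53 over the 865 short-span loci where at least 1 age exceeded that limit, with 498 above 0 and 367 below, under the same assumption on young zeros. The same median was 0.11 over all lncRNAs and 0.02 over long-span loci. By level, the median was 1.497 for loci with a mean under 0.1 CPM (191 of 282 had a ratio) and 0.95 from 0.1 to 0.5 CPM. It was -0.44 from 0.5 to 1 CPM and -0.52 from 5 to 10 CPM. Under 0.1 CPM 88.3% of loci, and from 0.1 to 0.5 CPM 41.0%, were above 0 only in old livers. For those the young level was the assumed limit, so any ratio was positive by construction, and the change of sign with level is a description. Among the 251 tested loci with a mean of at least 1 CPM, the age groups did not overlap for 42 that were higher in old livers (16.7%, background 15.8%) and for 61 that were lower (24.3%, background 30.2%). The summed CPM of all 956 loci was 1057 and 947 in young against 1008 and 750 in old livers, and the ages overlapped.

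**Figure D4:**
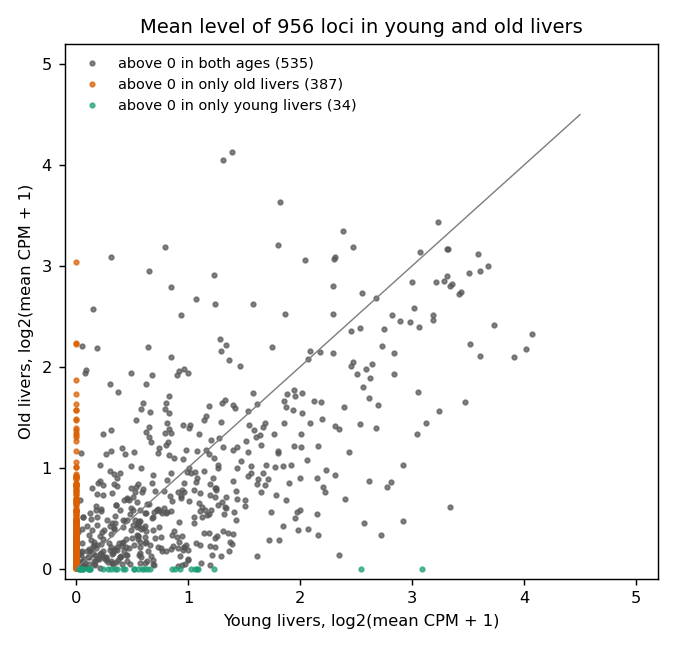
Mean level of each of the 956 short-span loci in young livers (horizontal axis) and old livers (vertical axis), as log2(mean CPM + 1), with the line of equal levels. The 387 loci above 0 only in old livers lie on the vertical axis, mostly low, and the loci with higher young levels spread on both sides of the line.

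Of the 42 higher loci with a mean of at least 1 CPM, the 6 with the smallest p-values are given here. MSTRG.115794 (chromosome 3, 60550415 to 60552279) was at 1.60 and 1.38 CPM in young against 16.9 and 14.2 CPM in old livers, 10.5-fold higher. MSTRG.136168 (chromosome 5, 23656902 to 23657314), 413 bases long, was at 2.10 and 1.17 CPM and at 17.7 and 15.3 CPM, 10.1-fold higher. Both loci had more than 1000 reads in each old library, and their young values did not come near the old ones. MSTRG.21790 (chromosome 1, 306727814 to 306728442) was at 0.414 and 0.0690 CPM and at 8.69 and 6.36 CPM, 31.2-fold higher. MSTRG.189553 (chromosome 9, 137104019 to 137104520) was at 0.795 and 0.682 CPM in young against 10.03 and 6.17 CPM in old livers, 10.96-fold higher. In both of these the old livers differed more from each other than in the first pair, with old replicate 1 the higher one. MSTRG.92478 (chromosome 18, 6536166 to 6536542) had 0 and 7 reads in young against 259 and 216 in old livers, or 4.21 and 3.01 CPM. MSTRG.168001 (chromosome 8, 688614 to 690332) had no reads in either young liver against 2.06 and 2.56 CPM in old ones, 68.7-fold higher than 3 reads per young library would be. The log2 fold changes of these 6 loci lay between 1.72 and 2.78 on the log2(CPM + 1) scale (standard errors 0.14 to 0.28), with adjusted p-values of limma from 0.181 to 0.198. MSTRG.168001 had the smallest log2 fold change and standard error of the 6. It passed the filter through the old livers alone, so its limma values are descriptions.

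The 6 lower loci were chosen in the same way from 61. MSTRG.143750 (chromosome 6, 8559491 to 8560037) was at 14.2 and 13.9 CPM in young against 3.28 and 3.27 CPM in old livers, 4.30-fold higher in young. MSTRG.88966 (chromosome 17, 39700961 to 39701774) was at 11.04 and 11.3 CPM and at 3.53 and 3.09 CPM, 3.37-fold higher in young. MSTRG.128695 (chromosome 4, 82880722 to 82881292), which had the highest mean of the set, was at 17.1 and 14.5 CPM and at 3.44 and 4.59 CPM, 3.93-fold higher in young. Replicates of each age lay close together in these 3 loci, and every library held more than 200 reads on each. MSTRG.145597 (chromosome 6, 31435870 to 31436509) was at 4.94 and 5.29 CPM in young against 0.634 and 1.02 CPM in old livers, 6.20-fold higher in young. MSTRG.28219 (chromosome 10, 75814019 to 75814625) was at 3.98 and 2.93 CPM and at 0.357 and 0.167 CPM, and MSTRG.141828 (chromosome 5, 99913598 to 99914421) was at 2.83 and 3.03 CPM and at 0.650 and 0.306 CPM. The old values of these 3 rested on 12 to 73 reads per library. The log2 fold changes of the 6 lower loci lay between -1.82 and -1.42 (standard errors 0.11 to 0.20), with adjusted p-values of limma from 0.181 to 0.198. Each of the 6 spanned between 547 and 824 bases.

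**Figure D5:**
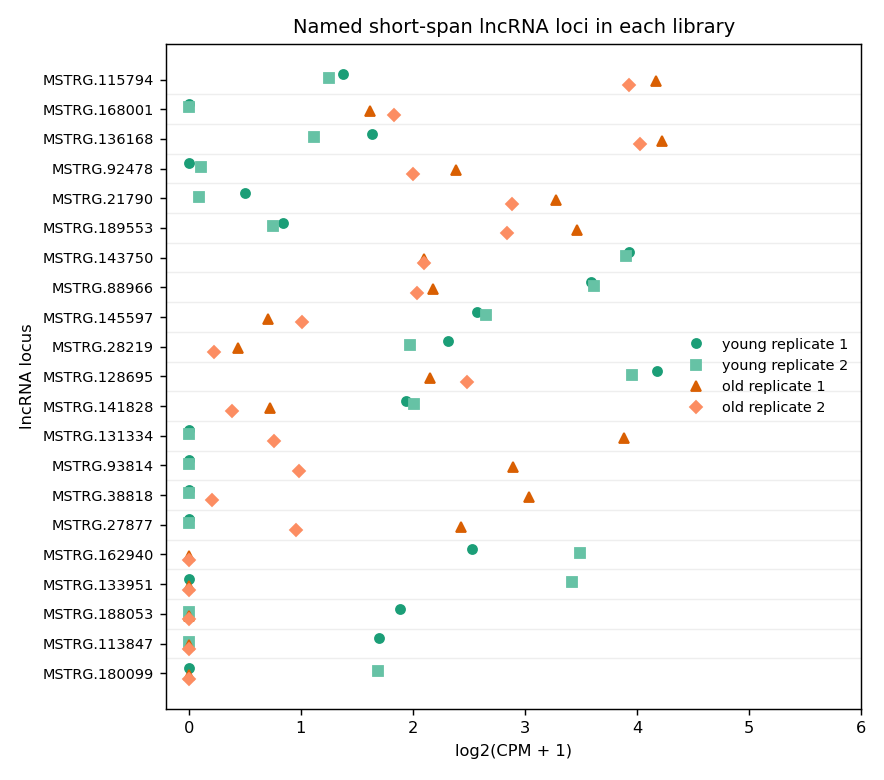
log2(CPM + 1) in each library (horizontal axis) for the loci chosen for the size and separation of their age difference or as the highest above 0 in a single age (vertical axis, 1 row per locus). The upper rows show old values such as 16.9 and 14.2 CPM of MSTRG.115794 apart from the young ones, and in MSTRG.131334, MSTRG.93814, MSTRG.38818 and MSTRG.27877 old replicate 1 lies far from old replicate 2.

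The highest loci above 0 only in old livers were mostly those of old replicate 1. MSTRG.131334 (chromosome 4, 111295528 to 111297292) had 849 reads in old replicate 1 and 50 in old replicate 2, or 13.8 and 0.696 CPM, and 0 in both young livers. MSTRG.38818 (chromosome 12, 45987376 to 45989079) had 7.22 and 0.153 CPM, with 444 and 11 reads. MSTRG.93814 (chromosome 18, 21069839 to 21070295) had 6.43 and 0.974 CPM, and MSTRG.27877 (chromosome 10, 72730553 to 72731798) had 4.37 and 0.947 CPM. Against an assumed 3 reads per young library these 4 loci were 215-fold, 109-fold, 110-fold and 79.0-fold higher on average, and old replicate 1 set most of each mean. Without old replicate 1, the log2 fold change of limma fell from 2.32 to 0.76 for MSTRG.131334 and from 1.62 to 0.21 for MSTRG.38818. Old replicate 1 was also the liver with 1425 CPM of interferon-stimulated genes, whose part in these values was not tested. Of all 956 loci, 26 were at 1 CPM or more in old replicate 1 and at least 4 times as high as in any other liver, against 5 in old replicate 2, 35 in young replicate 1 and 45 in young replicate 2.

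Of the loci above 0 only in young livers, MSTRG.162940 (chromosome 7, 65746853 to 65748089) was the only one found in both of them. It had 439 and 889 reads in the young livers, or 4.78 and 10.3 CPM, and 0 in both old livers, at least 166-fold higher than 3 reads per old library allow. By limma the difference was -3.01 on the log2 scale with a standard error of 0.40 (adjusted p = 0.208). The locus passed the filter of 2 libraries above 0 through the young livers alone, so these values are descriptions. The next 4 by mean were each found in 1 young liver. MSTRG.133951 (chromosome 5, 2075145 to 2076629) had 838 reads (9.68 CPM) in young replicate 2 and 0 in the other 3 livers. MSTRG.188053 (chromosome 9, 117666237 to 117666890) and MSTRG.113847 (chromosome 3, 40340603 to 40341587) had 2.69 and 2.25 CPM in young replicate 1 alone, and MSTRG.180099 (chromosome 9, 19176837 to 19177616) had 2.22 CPM in young replicate 2 alone. Since these 4 rested on a single library, they were not tested.

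When the recovered reads were given to the exact test of edgeR, the kind of test the study used, 4 short-span loci were called higher (0.556%, background 0.713%) and 1 lower (0.139%, background 0.062%). They were MSTRG.131334 (adjusted p = 0.00321), MSTRG.93814 (0.0206), MSTRG.168001 (0.0451) and MSTRG.27877 (0.0475), and in the other direction MSTRG.162940 (0.00101). All 5 were at 0 in every library of 1 age, so they passed the filter of 2 libraries above 0 through the other age alone. Their p-values are therefore descriptions. The counts of both edgeR tests also include the 184 loci that passed through the old livers alone and the 1 through the young livers. Unadjusted, at p under 0.05, the exact test had 171 loci higher (23.8%, background 19%) and 2 lower (0.278%, background 0.836%). The quasi-likelihood test of edgeR called none, its smallest adjusted p-value being 0.125. At an unadjusted p-value under 0.05 it had 192 loci higher (26.7%, background 21.7%) and 11 lower (1.53%, background 1.33%). Both edgeR tests scaled the libraries by their tested lncRNA reads with TMM factors (trimmed mean of M values), not by the deposited CPM. Unadjusted, over mRNAs and lncRNAs together, the exact test had 175 loci higher (24.3%, background 19.9%) and 25 lower (3.47%, background 3.78%). The part of the scaling in these counts was not tested. The count of the exact test also changed with how the spread was estimated. With trended dispersions it called 74 higher and 1 lower, against backgrounds of 8.21% and 0.217%, and at an unadjusted p-value under 0.05 it had 179 higher (background 19.9%) and 6 lower (background 1.08%).

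Among the 6 loci with the highest means, the age groups overlapped for MSTRG.101590 alone, and none was called by limma. MSTRG.51809 (chromosome 13, 139521344 to 139521997) was at 10.02 and 12.1 CPM in young against 7.72 and 7.63 CPM in old livers, a limma difference of -0.47 on the log2 scale with a standard error of 0.15 (adjusted p = 0.352). MSTRG.101590 (chromosome 2, 65165153 to 65165814) was at 9.69 and 7.11 CPM and at 7.57 and 12.1 CPM, and the ages overlapped. MSTRG.64288 (chromosome 14, 82661993 to 82663356) was at 11.3 and 12.3 CPM in young against 4.65 and 9.33 CPM in old livers. MSTRG.24092 (chromosome 10, 25352385 to 25353034) was at 11.3 and 19.1 CPM and at 4.57 and 2.49 CPM, with both old livers below both young livers. Per kilobase of span, the highest mean of the set was that of MSTRG.136168 with 22.0 CPM, followed in this group by MSTRG.128695 with 17.4 CPM, and MSTRG.64288, more than 1000 bases long, had 6.89 CPM.

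Loci at the edges of the rule are given here without a test. Just under the span limit were MSTRG.169559, of 1998 bases, with a mean of 0.371 CPM, and MSTRG.93786, of 1996 bases, with 0.0123 CPM. Just outside it were MSTRG.110527, of 2000 bases, with a mean of 0.846 CPM, and MSTRG.212374, of 2002 bases, with 0.599 CPM. At the limit on the mean, MSTRG.128695 (9.91 CPM) and MSTRG.64288 (9.40 CPM) were inside and MSTRG.36054 (10.4 CPM, with 29.1 CPM in old replicate 1) and MSTRG.97938 (10.4 CPM) were outside.

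Neighbouring loci of the set did not always share a pattern. There were 11 pairs of short-span loci within 1000 bases of each other. MSTRG.159230 and MSTRG.159231 overlap on chromosome 7 (22478204 to 22480081 and 22479847 to 22480589), so reads in the shared part cannot be assigned to either with certainty. The former was at 2.17 and 0.243 CPM in young against 1.22 and 0.696 CPM in old livers, and the latter at 2.90 and 0 CPM and at 0 and 0.181 CPM. MSTRG.114142 and MSTRG.114143, 807 bases apart on chromosome 3 (42415809 to 42417720 and 42418528 to 42420289), were alike in that young replicate 2 had 0 reads on the former and 1 on the latter, against 40 to 106 in the other 3 livers. MSTRG.24581 and MSTRG.24583, 936 bases apart on chromosome 10 (30841676 to 30842868 and 30843805 to 30845252), differed in young replicate 1, which had 108 reads on the former and 0 on the latter.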

How the data were processed

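Liver RNA of 2 young and 2 old sows was sequenced as rRNA-depleted RNA-seq. The CPM values of lncRNAs and mRNAs come from the authors. They used TopHat2 2.0.14 for alignment (Sscrofa10.2) and StringTie 1.2.3 for assembly, removed lncRNA candidates with coding potential, and name the values TPM from Salmon 0.6.0. The deposited signal values of circRNAs come from CIRCexplorer2 with scaling that is not given in the sources used here, and only their positions were used. Replicates were not pooled. The miRNA table was not used. All 4 columns of each table matched a sample.

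Whole reads were recovered by dividing by the step of each library. At least 99.95% of lncRNA values above 0 lay within 0.1 read of a whole number. A count of 3 reads was taken as the limit of detection. limma 3.58.1 (lmFit and eBayes, pseudocount 1, Benjamini-Hochberg over 3228 lncRNAs) and edgeR 4.0.16 in R 4.3.3 were used, with Python 3.11.15, scipy 1.17.1, pandas 2.3.3, matplotlib 3.10.9 and numpy 2.4.6. The exact test of edgeR used common and tagwise dispersions. Both edgeR tests scaled libraries by the reads of the tested lncRNAs, the most abundant one included, with TMM factors. The fits were tried on simulated counts with a smaller spread than these data. The common dispersion estimated here was 1.29 for the quasi-likelihood test and 1.35 for the exact test, so that trial does not cover it. Levels were taken as lncRNAs are listed, with no length correction except where CPM per kilobase of span is given.

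The members, marker lists and tests were chosen with earlier results of these data known. Named loci were, for each direction, the 6 members with the smallest limma p-value whose mean reached 1 and whose ages did not overlap. Added to these were the 6 highest means, the 5 highest above 0 in a single age, the 2 on each side of each limit, members called by limma or the exact test, and the 3 pairs within 1000 bases with the highest smaller mean. Gene symbols came from a table of Ensembl identifiers. Alternatives covered the pseudocount, filter, scaling, variance model, test, replicate block, detection limit, span and mean limits, and leaving out each library. Read limits cover counting error only, since reads from PCR are not independent molecules.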

Additional observations from a re-analysis of the deposited data

How the results depend on the processing

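No short-span locus was called under the pseudocounts, filters, scalings, variance models, subsets and left-out libraries tried with limma, nor by the quasi-likelihood test. The exact test of edgeR called 5 (0.694%, against 0.774% of all lncRNAs), and, chosen after seeing the data, 75 with trended dispersions (10.4% against 8.43%) and 45 when fitted to mRNAs and lncRNAs together (6.25% against 5.76%). Loci higher at an unadjusted p-value under 0.05 numbered 55, and 171 with the exact test, 175 with it over mRNAs and lncRNAs (24.3%, against 19.9% of all lncRNAs), 179 with trended dispersions, 192 with the quasi-likelihood test, 115 with a variance trend in limma (16.0% against 13.8%), 109 with a pseudocount of 0.1 (15.1% against 12.6%), 16 with a mean of at least 1 (6.35% against 6.39%), 26 under 1000 bases (8.44% against 7.68%) and 37 to 147 with 1 library left out. Lower loci numbered 32, and 2 with the exact test, 6 with trended dispersions, 11 with the quasi-likelihood test, 21 with the variance trend (2.92% against 3.53%), 19 with a mean of at least 1 (7.54% against 7.07%), 15 under 1000 bases (4.87% against 6.54%) and 17 to 86 with 1 library left out. A mean of at least 1 and a span under 1000 bases test fewer loci by construction (252 and 308), and for the other settings the cause was not tested. The median log2 fold change of 0.06 turned to -0.19 with a mean of at least 1, and was 0.47 with a pseudocount of 0.1, 0.65 with the quasi-likelihood test and with the exact test under either dispersion, 0.40 with the exact test over mRNAs and lncRNAs, and 0.01 to 0.19 with 1 library left out. TMM scaling shifted old against young values by 0.24 on the log2 scale, and scaling to the lncRNA total without the most abundant lncRNA by -0.13. The edgeR folds over lncRNAs rest on lncRNA totals with TMM factors and are not on the scale of the deposited CPM. MSTRG.51809, 1.44-fold higher in young livers by mean CPM, had a log2 fold change of -0.014 in the exact test.

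Loci above 0 only in old livers numbered 387, and 81 at a value of at least 1, 171 under 1000 bases and 249 to 581 with 1 library left out. Those only in young livers numbered 34, and 7 when both libraries of an age were required, 140 at a value of at least 1, 17 under 1000 bases and 12 to 81 with 1 library left out. Leaving out a library removes loci from its age by construction. With more than 3 reads required the numbers were 343 and 43. The widening of the gap between short-span and long-span loci of 9.04 points was 6.18 to 11.9 points with 1 library left out. Of 486 values of the 29 named loci that were tested, under 17 other fits, 445 kept direction and call, 27 gained a call by an exact test and 14 turned in direction. MSTRG.159230 (-0.032) was at 0.088 with TMM, 0.22 with the exact test under either dispersion, the quasi-likelihood test and a pseudocount of 0.1, and 0.027 with a pseudocount of 0.5. With 1 library left out it ranged from -0.71 to 0.64, MSTRG.159231 from -1.84 to 0.12, MSTRG.169559 from -0.81 to 0.25, MSTRG.93786 from -0.035 to 0.011, MSTRG.114142 from -0.16 to 0.75 and MSTRG.101590 from -0.12 to 0.49. Same-numbered young and old samples share only a number (r = 0.06 between their differences over 3228 lncRNAs, with 2 pairs). A replicate block in limma gave no call. At an unadjusted p-value under 0.05 it gave 46 higher (6.39%, against 6.04% of all lncRNAs) and 25 lower loci (3.47% against 5.24%). With 2 livers an age, no exact test over libraries could pass 0.05, young zeros may hide low counts, and values at 3 reads or fewer cannot be told from absence.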
